A study of Mus musculus with 9 samples.

Results

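The Z-disc and thin filament genes described here are Actn2, Actn3, Myoz1, Myoz3, Myot, Tcap, Neb, Des, Xirp1 and Mylk2, 10 of the 55401 genes in the deposited tables. They were taken by symbol, from a list chosen with earlier results of these data known. Each was matched to a single gene identifier. Of these 10, 9 passed edgeR's filter on low counts and were tested among 18514 genes, and Xirp1 was listed at 0 in all 9 libraries. The tissue was the gastrocnemius of the calf, a muscle made mostly of fast fibres, from FVB mice of the wild type that were 2 to 3 months old. All muscles were injected, and all were collected after 7 weeks. The saline group received no vector, the AAV-GFP group received an adeno-associated virus vector for green fluorescent protein, and the AAV-GFP-MBNL1∆ group received a vector for the fluorescent protein and a shortened MBNL1. MBNL1 is a splicing regulator of muscle. In myotonic dystrophy it is trapped on expanded CUG repeats, for which the study's title names a decoy protein. These mice carried no such repeat according to their labelled genotype, so the comparisons ask what the vectors did in normal muscle. Each group had 3 libraries. The sources used here do not give the promoters of the vectors, the share of fibres reached, or whether each library came from its own mouse.

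The Z-disc is the border between neighbouring sarcomeres, where actin thin filaments of opposite polarity are tied together by alpha-actinin. Small adaptor proteins dock signalling proteins and titin there, nebulin runs along the thin filament from this anchor, and desmin filaments link neighbouring Z-discs and join them to the cell membrane. The composition of the structure differs between fast and slow fibres. The label covers Mylk2 only loosely: it encodes the skeletal muscle myosin light chain kinase, a calmodulin-activated enzyme that acts on the thick filament.

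The fibre genes Myh4, Atp2a1, Acta1 and Ckm were among the 10 most abundant transcripts. The 6 cardiac markers summed to 80.6 to 235 CPM, nearly all of it from Myh6 (75.7 to 230 CPM), and of the others Tnnt2 had 3.15 to 10.1 CPM and Nppa was listed at 0 in every library. Library totals lay between 44603618 and 76970849 counts. The library AAV-GFP 2 stood apart: 17.7% of its counts fell in its 10 most abundant genes, against 23.6% to 27.7% in the other 8. Summed CPM (reads of a gene relative to the library size, here after TMM adjustment) of 10 macrophage markers was 108 to 141 in saline, 287 to 2873 in AAV-GFP with the highest value in AAV-GFP 2, and 214 to 344 in AAV-GFP-MBNL1∆. All 10 of these markers were above every saline library in every AAV-GFP library (14.7% of all genes tested did this), with none called by edgeR at an adjusted p under 0.05. The 12 T cell markers summed to 0.893 to 1.26, 9.21 to 127 and 8.6 to 20.5 CPM in the same order of groups, and the 8 B and plasma cell markers to 0.333 to 1.13, 3.65 to 919 and 31.7 to 97.2 CPM, with Mzb1 listed at 0 in every library. Xist, the RNA of the inactive X chromosome, had 0.0182 to 0.0902 CPM in AAV-GFP-MBNL1∆ muscle and 105 to 136 CPM in the other 6 libraries. The Y-linked gene Ddx3y was at 82.7 to 84.6 CPM in AAV-GFP-MBNL1∆ and at 0.409 to 2.58 CPM elsewhere. The sex of the mice and the decoy vector thus cannot be told apart in any comparison with AAV-GFP-MBNL1∆. The 2.58 CPM was that of AAV-GFP 1, which also had 75 counts of Eif2s3y and 50 of Uty, both Y-linked. The other saline and AAV-GFP libraries had 0 counts of Eif2s3y and 0 to 1 of Uty. The source of these reads in AAV-GFP 1 was not tested.

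Most members were expressed at a high level, and their order was led by the fast fibre alpha-actinin. Levels were compared between genes as RPKM (CPM divided by the kilobases of merged exons). In saline muscle the mean RPKM ± SD over 3 libraries was 2063 ± 408 for Actn3, 1395 ± 97.1 for the titin cap gene Tcap and 836 ± 14.3 for desmin. Next came myotilin (Myot) at 711 ± 52.6, Myoz1 at 697 ± 99.0 and Actn2 at 474 ± 150 RPKM. Nebulin (Neb) stood at 243 ± 28.5, Mylk2 at 228 ± 33.1 and Myoz3 at 72.8 ± 5.16 RPKM. The highest of these means was thus 28.3 times the lowest. Of the 8 pairs of neighbours in this order, 3 had overlapping libraries, namely Myot with Myoz1, Myoz1 with Actn2, and Neb with Mylk2. AAV-GFP muscle had the same order, with overlap in 5 of the 8 pairs. In AAV-GFP-MBNL1∆ muscle Myoz1 (926 ± 65.5 RPKM) stood before Myot (633 ± 52.5), and Mylk2 (364 ± 29.0) stood before Neb (181 ± 8.85). There the only neighbours with overlapping libraries were Actn2 (375 ± 52.2 RPKM) and Mylk2.

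**Figure D1:**
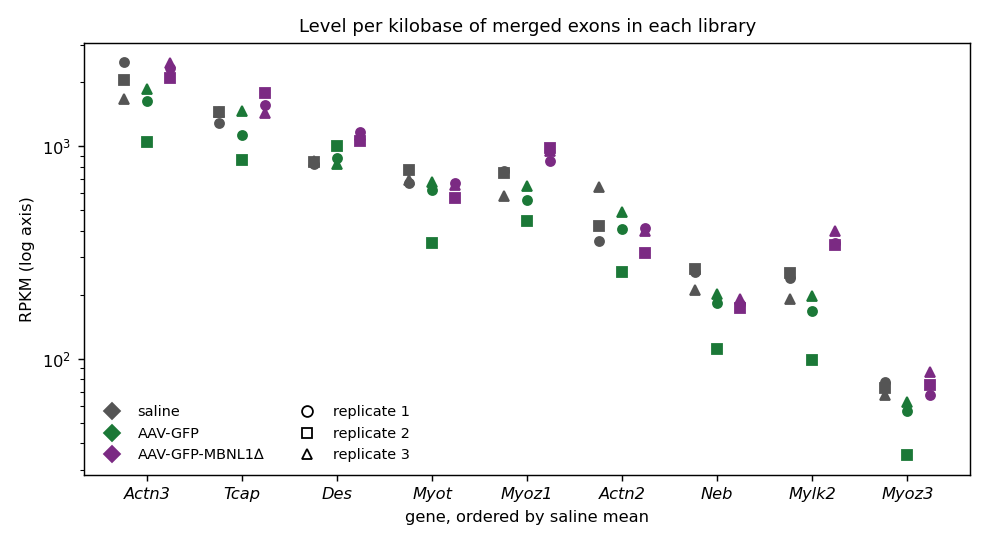
RPKM on a log axis for each of the 9 measured genes, ordered by saline mean, with 1 point per library, colour for group and marker shape for replicate number. Actn3 heads the order and Myoz3 ends it in all groups, and the AAV-GFP-MBNL1∆ points of Mylk2 lie above those of Neb.

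Between AAV-GFP-MBNL1∆ and AAV-GFP muscle, 2 members were called, both higher with the decoy vector: Mylk2, the kinase of the fast myosin light chain, 2.36-fold, and Myoz1, a fast fibre adaptor that binds alpha-actinin and calcineurin, 1.68-fold. None was called lower by edgeR, and 6 of 9 had an unadjusted p under 0.05, all with a positive difference. Of the 18514 genes tested, 7464 had an unadjusted p under 0.05 in this comparison, 3257 of them higher. Against saline, 4065 genes did so for AAV-GFP and 4817 for AAV-GFP-MBNL1∆. Over all genes tested, 10.8% were called higher and 10.3% lower. Against saline, edgeR called no member for either vector (backgrounds of 0% higher and 0% lower for AAV-GFP, and of 4.76% higher and 4.60% lower for AAV-GFP-MBNL1∆). The comparisons share libraries in pairs, so a low AAV-GFP value enters both comparisons with that group. In whole muscle, a smaller share of fibre RNA and less of a transcript per fibre cannot be told apart.

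**Figure D2:**
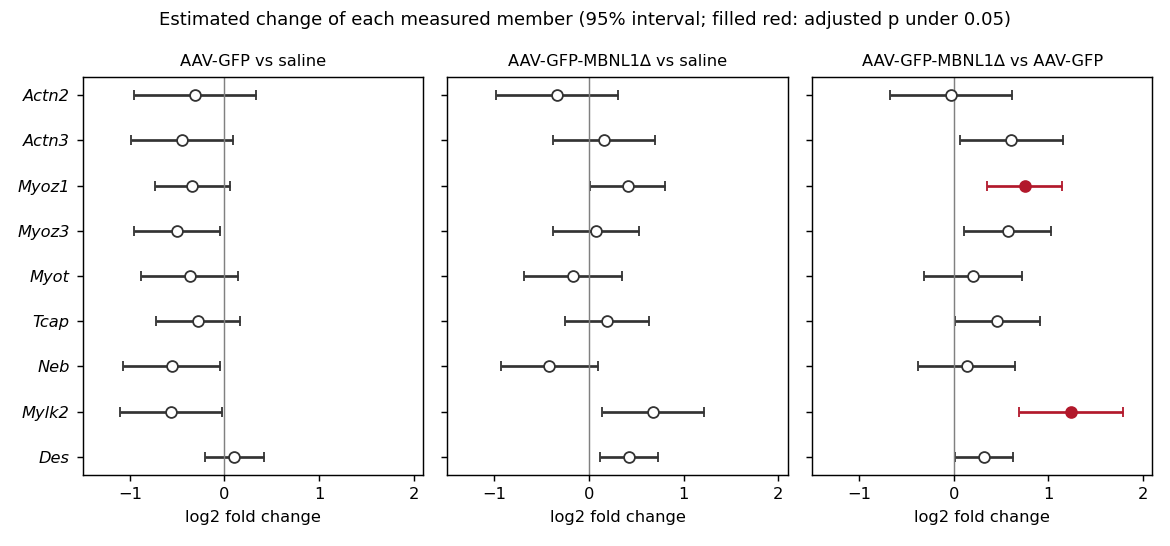
Estimated log2 fold change of each measured gene in the 3 comparisons, from edgeR over all 9 libraries, with 95% intervals as bars and filled red points where the adjusted p is under 0.05. The 2 filled points are Mylk2 and Myoz1 in AAV-GFP-MBNL1∆ against AAV-GFP.

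The alpha-actinins crosslink the thin filaments. Actn2 (chromosome 13, 12269426 to 12340760, minus strand, GRCm38) is made in all fibres and Actn3 (chromosome 19, 4861216 to 4877909, minus strand) in fast fibres. Actn2 was at 1356, 1600 and 2438 CPM in saline 1, 2 and 3, at 1538, 965 and 1849 CPM for AAV-GFP and at 1564, 1197 and 1510 CPM for AAV-GFP-MBNL1∆. The groups overlapped throughout, with the highest value in saline 3 and the lowest in AAV-GFP 2. Its log2 difference from saline was −0.31 ± 0.28 (SE) with AAV-GFP (edgeR adjusted p = 0.510) and −0.34 ± 0.28 with AAV-GFP-MBNL1∆ (0.502). Actn3 was at 7188, 5941 and 4823 CPM with saline, at 4749, 3030 and 5368 CPM with AAV-GFP and at 6796, 6077 and 7167 CPM with AAV-GFP-MBNL1∆. Every AAV-GFP-MBNL1∆ library lay above every AAV-GFP library, while saline overlapped with both. The log2 difference between the vectors was 0.61 ± 0.24 (SE), which edgeR did not call (adjusted p = 0.0939). It was −0.45 ± 0.24 for AAV-GFP against saline (0.284) and 0.16 ± 0.24 for AAV-GFP-MBNL1∆ against saline (0.725).

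The ratio of the alpha-actinins within a library does not depend on how libraries are scaled. Per exon length, Actn3 exceeded Actn2 by 6.94, 4.86 and 2.59 times in saline 1, 2 and 3, by 4.04, 4.11 and 3.80 times in AAV-GFP and by 5.68, 6.64 and 6.21 times in AAV-GFP-MBNL1∆. The values of the vector groups did not overlap, and the saline values spanned both. The difference of the log2 ratio between the vectors was 0.63 (two-sided exact permutation test, n = 3 and 3, p = 0.1, which is the smallest p that this size allows, and 0.3 after adjustment over 6 tests). In AAV-GFP 2, where both genes were lowest, the ratio was close to those of AAV-GFP 1 and 3. Saline 3, with the lowest ratio of all 9 libraries, also had the highest summed CPM of 10 slow fibre markers, 7195 against 4234 and 4434 in saline 1 and 2. In AAV-GFP the slow markers summed to 5240, 2850 and 6759 CPM, while in AAV-GFP-MBNL1∆ they summed to 3690, 2590 and 4021 CPM. Slow markers were below every saline library in all AAV-GFP-MBNL1∆ libraries for 8 of 10 genes (20% of all genes tested did this), with none called by edgeR and 5 of 10 at an unadjusted p under 0.05. The 14 fast fibre markers summed to 187873, 173047 and 144246 CPM in saline, to 133082, 90748 and 148166 CPM in AAV-GFP and to 159685, 180407 and 184456 CPM with AAV-GFP-MBNL1∆. The part of fibre type in the differences of the alpha-actinins was not tested.

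**Figure D3:**
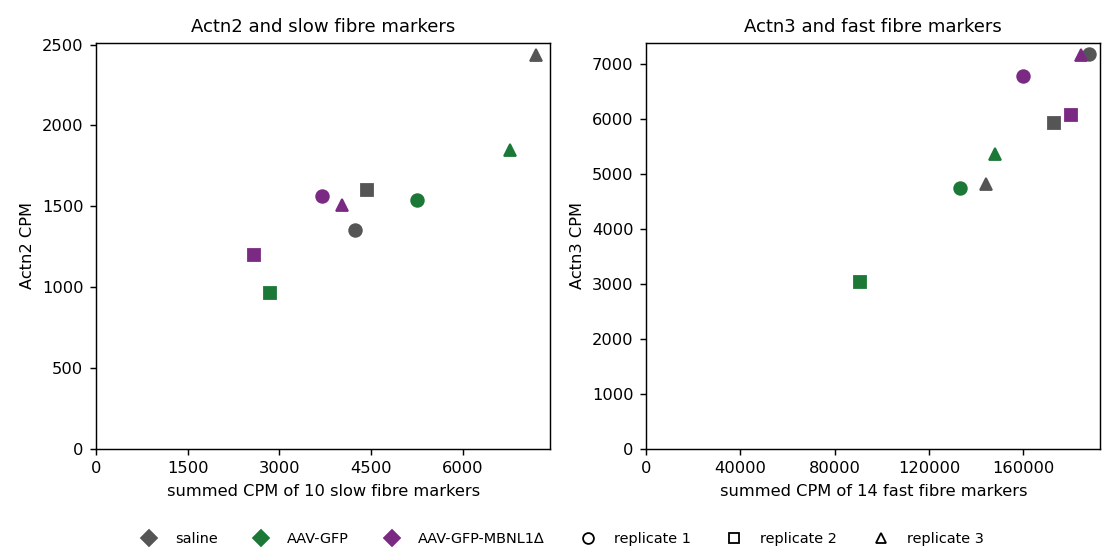
Left, Actn2 CPM against the summed CPM of 10 slow fibre markers; right, Actn3 CPM against the summed CPM of 14 fast fibre markers, with 1 point per library and both axes starting at 0. Saline 3 has the highest Actn2 value (2438 CPM) and the highest slow sum (7195 CPM), and AAV-GFP 2 has the lowest Actn3 value (3030 CPM) and the lowest fast sum (90748 CPM).

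Calsarcins tether the phosphatase calcineurin to alpha-actinin at the Z-disc. Myoz1 encodes the calsarcin of fast fibres (chromosome 14, 20649107 to 20656540, minus strand), and Myoz3 a further fast fibre calsarcin (chromosome 18, 60573750 to 60591788, minus strand). Myoz1 was at 1443, 1408 and 1103 CPM with saline, at 1060, 839 and 1223 CPM with AAV-GFP and at 1613, 1849 and 1795 CPM with AAV-GFP-MBNL1∆. The 3 AAV-GFP-MBNL1∆ libraries were thus the highest of the 9, and saline and AAV-GFP overlapped. Against AAV-GFP, Myoz1 rose by 0.75 ± 0.18 (SE) on the log2 scale (edgeR adjusted p = 0.0224). Against saline the difference was 0.41 ± 0.17 and was not called (0.177). The call between the vectors was lost without AAV-GFP 1 (adjusted p = 0.0590) and without AAV-GFP-MBNL1∆ 1, 2 or 3 (0.0519, 0.0718 and 0.0881), while the difference stayed between 0.62 and 0.86. It was kept without AAV-GFP 2 (0.62, adjusted p = 0.0149).

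Myoz3 was at 268, 250 and 232 CPM with saline, at 196, 121 and 215 CPM with AAV-GFP and at 233, 259 and 296 CPM with AAV-GFP-MBNL1∆. All AAV-GFP libraries were below those of both other groups. The log2 difference was −0.50 ± 0.20 (SE) against saline (edgeR adjusted p = 0.202) and 0.57 ± 0.20 between the vectors (0.0701), neither of them called. Saline and AAV-GFP-MBNL1∆ overlapped, with a difference of 0.07 ± 0.20 and a 95% interval of −0.38 to 0.52. Per exon length, Myoz1 exceeded Myoz3 by 9.79, 10.2 and 8.62 times in saline, by 9.84, 12.6 and 10.3 times in AAV-GFP and by 12.6, 13.0 and 11.0 times in AAV-GFP-MBNL1∆. The ratio was above every saline library in each AAV-GFP-MBNL1∆ library, with a log2 difference of 0.35 (two-sided exact permutation test, n = 3 and 3, p = 0.1, and 0.3 after adjustment over 6 tests).

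Calcineurin, which the calsarcins bind, and its partners were called between the vectors at about the share of all genes. Of 10 genes of this pathway, 1 was called higher and 1 lower in AAV-GFP-MBNL1∆ against AAV-GFP, beside 10.8% and 10.3% of all genes: the catalytic subunit Ppp3cb rose from 220 ± 48.8 to 366 ± 15.7 CPM (edgeR adjusted p = 0.0288), and the calcineurin regulator Rcan1 fell from 125 ± 23.1 to 81.7 ± 8.55 CPM (0.0495). For AAV-GFP-MBNL1∆ against saline, 1 of the 10 was called higher and 1 lower, beside 4.76% and 4.6% of all genes. The catalytic subunit Ppp3cc was higher by 0.27 on the log2 scale (edgeR adjusted p = 0.0472) and the transcription factor Nfatc3 was lower, at −0.44 (0.0496). No gene of this list was called for AAV-GFP against saline by edgeR, with 2 of 10 at an unadjusted p under 0.05.

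Myotilin, telethonin and nebulin complete the anchor. Myotilin (Myot, chromosome 18, 44334074 to 44355724, plus strand) binds alpha-actinin and filamin C and crosslinks actin. It was at 1483, 1702 and 1525 CPM with saline, at 1376, 775 and 1496 CPM with AAV-GFP and at 1479, 1265 and 1449 CPM with AAV-GFP-MBNL1∆. The lowest value was that of AAV-GFP 2, and the AAV-GFP-MBNL1∆ values lay just below those of saline. No difference of Myot was called, at log2 differences of −0.37 ± 0.23 (SE), −0.17 ± 0.23 and 0.20 ± 0.23 for AAV-GFP against saline, AAV-GFP-MBNL1∆ against saline and AAV-GFP-MBNL1∆ against AAV-GFP (edgeR adjusted p of 0.344, 0.693 and 0.534). Telethonin (Tcap, chromosome 11, 98383811 to 98384953, plus strand) caps pairs of titin molecules at the Z-disc. It was at 1216, 1374 and 1376 CPM with saline, at 1068, 815 and 1393 CPM with AAV-GFP and at 1485, 1679 and 1350 CPM with AAV-GFP-MBNL1∆. Each pair of groups overlapped, and the largest log2 difference, 0.46 ± 0.20 between the vectors, was not called (0.113).

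Nebulin (Neb, chromosome 2, 52136647 to 52378474, minus strand) spans the thin filament from the Z-disc and stabilises it. Neb was at 6759, 7013 and 5592 CPM with saline, at 4864, 2938 and 5340 CPM with AAV-GFP and at 4798, 4588 and 5057 CPM with AAV-GFP-MBNL1∆. Every saline library lay above every library of both vector groups, and the vector groups overlapped. The log2 difference from saline was −0.56 ± 0.23 (SE) with AAV-GFP (edgeR adjusted p = 0.204) and −0.42 ± 0.23 with AAV-GFP-MBNL1∆ (0.279), neither of them called. With AAV-GFP 2 left out of the fit, Neb was called lower in AAV-GFP-MBNL1∆ than in saline (−0.44, adjusted p = 0.0253). That fit called 1933 genes higher and 2114 lower in this comparison, in place of 882 and 852. Titin (Ttn), the spring of the sarcomere, had the CPM pattern most like that of Neb across the 9 libraries among 8297 genes with a mean of at least 10 CPM (Pearson r = 0.992). Ttn averaged 13407 ± 1767 CPM in saline against 9351 ± 2794 CPM in AAV-GFP and was not called (edgeR adjusted p = 0.240).

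Desmin (Des, chromosome 1, 75360329 to 75368579, plus strand) went against the other members in the AAV-GFP group. It was at 3078, 3158 and 3181 CPM with saline, at 3301, 3756 and 3075 CPM with AAV-GFP and at 4395, 3987 and 4250 CPM with AAV-GFP-MBNL1∆. The AAV-GFP-MBNL1∆ libraries were the 3 highest, and AAV-GFP 2, lowest for the other 8 measured members, was the highest of the saline and AAV-GFP libraries. The log2 difference of AAV-GFP-MBNL1∆ was 0.42 ± 0.14 (SE) against saline (edgeR adjusted p = 0.0853) and 0.32 ± 0.14 against AAV-GFP (0.114). Neither was called with all libraries, and without AAV-GFP 2 both were (0.40, adjusted p = 0.0146, and 0.41, adjusted p = 0.0252). Over all genes, that fit called 1933 higher and 2114 lower against saline, in place of 882 and 852. Between the vectors it called 2037 higher and 1759 lower, in place of 2006 and 1908. AAV-GFP differed from saline by 0.11 ± 0.14 (0.643), with a 95% interval of −0.20 to 0.41. An antisense gene, Gm15179, shares 5.86% of the exon bases of Des, and the sources used here do not say whether the counting used strand, so reads in those bases may come from either gene.

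Mylk2 (chromosome 2, 152911352 to 152923068, plus strand) had the widest separation of the vector groups among the members. It was at 708, 748 and 562 CPM with saline, at 492, 290 and 583 CPM with AAV-GFP and at 1035, 1015 and 1172 CPM with AAV-GFP-MBNL1∆. Each AAV-GFP-MBNL1∆ library exceeded all 6 others, while AAV-GFP 3 lay above saline 3, so that saline and AAV-GFP overlapped. Against AAV-GFP, Mylk2 rose by 1.24 ± 0.24 (SE) on the log2 scale (edgeR adjusted p = 0.0127). Against saline the difference was 0.68 ± 0.24, or 1.60-fold, and was not called (0.113), and AAV-GFP differed from saline by −0.56 ± 0.24 (0.216). The call between the vectors was kept without AAV-GFP 2, at 1.003 (adjusted p = 0.00182), and was lost without AAV-GFP-MBNL1∆ 3 (1.17, adjusted p = 0.0600). Without AAV-GFP 2, the difference from saline was called as well (0.66, adjusted p = 0.00579), in a fit with 1933 genes called higher in place of 882.

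Of 11 other genes of myosin light chain phosphorylation, 4 were called higher and 1 lower in AAV-GFP-MBNL1∆ against AAV-GFP, beside 10.8% and 10.3% of all genes. Calm3 and Calm2 encode calmodulin, the calcium sensor that switches on Mylk2. Calm3 rose from 221 ± 28.5 to 387 ± 2.73 CPM (edgeR adjusted p = 0.00669) and Calm2 from 132 ± 8.29 to 175 ± 14.6 CPM (0.0229). The kinase Mylk4, a relative of Mylk2, rose from 1143 ± 373 to 2205 ± 151 CPM (0.0355), and the myosin phosphatase subunit Ppp1r12a fell from 66.2 ± 2.04 to 53.9 ± 0.382 CPM (0.0174). Against saline, only Calm3 of this list was called, at 387 ± 2.73 against 265 ± 32.5 CPM (0.0350), beside 4.76% of all genes called higher. No gene of the list was called in AAV-GFP against saline by edgeR, with 1 of 11 at an unadjusted p under 0.05.

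**Figure D4:**
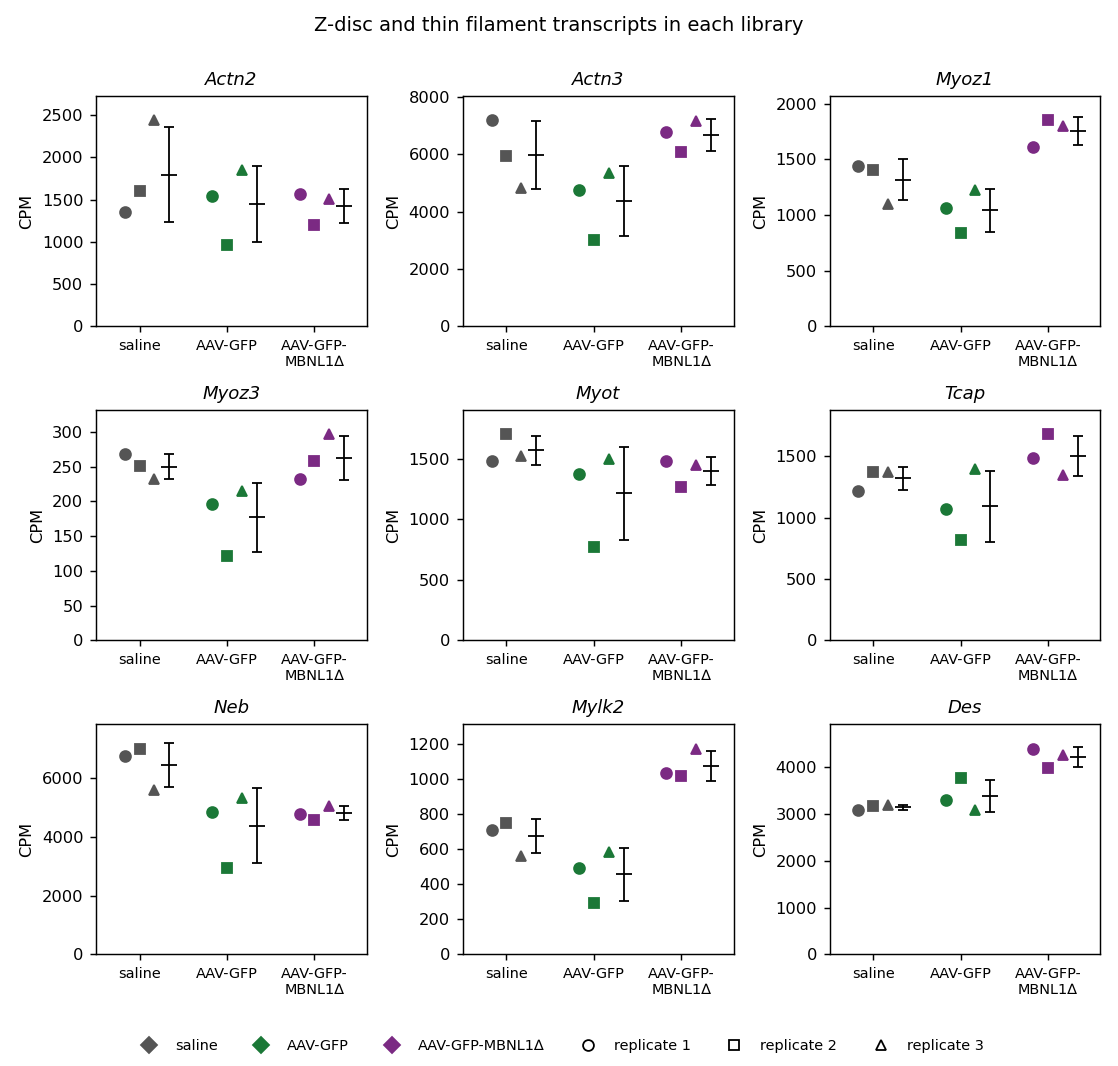
CPM of the 9 measured genes in each library, with 1 point per library and the mean ± SD of each group as a bar beside it; each panel has its own axis from 0. The AAV-GFP-MBNL1∆ libraries are the 3 highest for Mylk2, Myoz1 and Des, and AAV-GFP 2 (green square) is lowest in every panel except Des.

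Xirp1 encodes Xin, an actin-binding repeat protein of damaged and growing fibres (chromosome 9, 120013755 to 120023598, minus strand). It was listed at 0 in all 9 libraries and was not tested. The annotated span of Cx3cr1, on the same strand, runs from 119901616 to 120069879 and encloses Xirp1. Gorasp1 and Csrnp1, which lie within that span as well and on the minus strand, were also listed at 0 in all 9 libraries. Ttc21a, within the span but on the plus strand, had 0 to 4 counts, and Cx3cr1 had 172 to 672 counts. Wdr48, which overlaps the start of the span on the plus strand, had 766 to 1595 counts. Xirp1 and Cx3cr1 share 0 exon bases in the annotation used here. Why Xirp1 was listed at 0 was not tested, and no level of it is given. Its relative Xirp2 was counted, at 3367 ± 225 CPM in saline and 2420 ± 767 CPM in AAV-GFP, with every AAV-GFP library below saline and no call (edgeR adjusted p = 0.249).

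The members varied most in the AAV-GFP group. The coefficient of variation across 3 libraries ran from 10.3% to 32.9% in AAV-GFP with a median of 28.0%, from 1.71% to 31.6% in saline with a median of 11.7%, and from 4.89% to 13.9% in AAV-GFP-MBNL1∆ with a median of 8.29%. Summed over the 9 measured members, CPM was 18643, 13530 and 20543 in AAV-GFP 1, 2 and 3, against 20831 to 23498 in saline and 21915 to 24046 in AAV-GFP-MBNL1∆. As a median over members, the log2 difference from the saline mean was −0.31 in AAV-GFP 1, −0.96 in AAV-GFP 2 and −0.10 in AAV-GFP 3, and it was 0.17, 0.05 and 0.25 for the AAV-GFP-MBNL1∆ libraries. AAV-GFP 1 and 3 were thus nearer to saline than AAV-GFP 2 was. The macrophage markers had the reverse order, with sums of 617, 2873 and 287 CPM in AAV-GFP 1, 2 and 3. Fast fibre markers as a list followed the members, at medians of −0.24, −0.72 and −0.09 from the saline mean in the same libraries. The part of immune RNA in the member values was not tested.

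**Figure D5:**
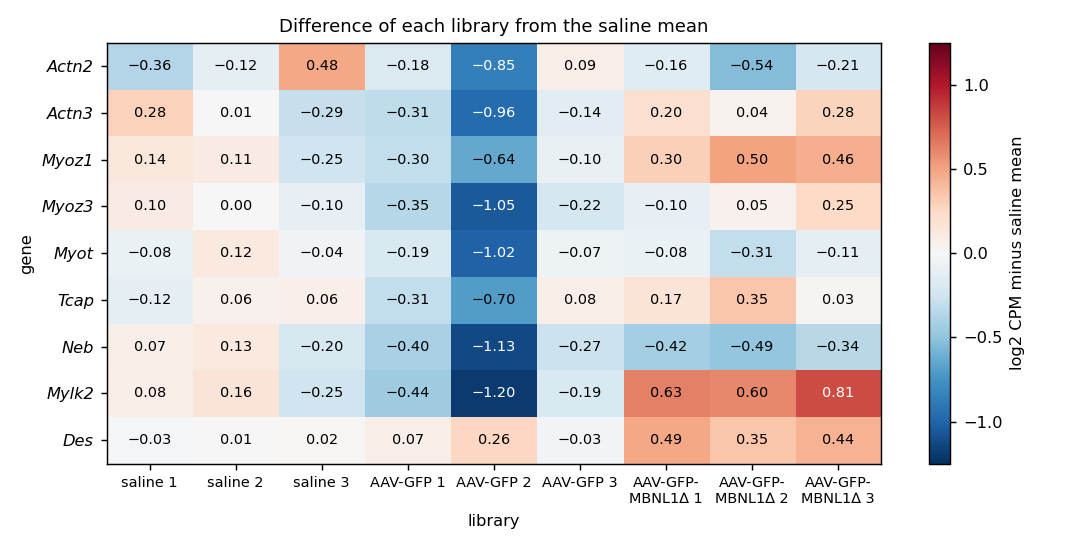
Difference of each library's log2 CPM from the saline mean, with genes in rows, libraries in columns and colour from blue (lower) to red (higher). AAV-GFP 2 is lower for every measured gene except Des (0.26). The AAV-GFP-MBNL1∆ libraries are all higher for Mylk2, Myoz1, Des, Actn3 and Tcap, and all lower for Neb, Actn2 and Myot.

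Over the 9 tested members, the median log2 difference of AAV-GFP from saline was −0.37, beside −0.01 over all genes. It was −0.23 without AAV-GFP 2. None was called by edgeR, 3 had an unadjusted p under 0.05 (Myoz3, Neb and Mylk2, all with a negative difference), and DESeq2 called none. Among all genes tested, 4065 had an unadjusted p under 0.05 in edgeR, 1176 of them lower. Limma-voom with a weight for the quality of each library called 6 lower, where it called 3078 genes higher and 2386 lower in all. Of the 9 members, 2 were below saline in every AAV-GFP library, Myoz3 and Neb (12.4% of all genes), and none was above (14.7% of all genes). For AAV-GFP-MBNL1∆ against saline the median was 0.16, beside 0.02 over all genes, and 3 members were above saline in every library (Myoz1, Des and Mylk2; 22.7% of all genes) and 2 below (Myot and Neb; 20%). Of these, 3 had an unadjusted p under 0.05, namely Myoz1, Des and Mylk2. Among all genes tested, 4817 did so, 2423 of them higher. DESeq2 called Des and Mylk2 higher and none lower, where it called 1600 genes higher and 1289 lower in all. For AAV-GFP-MBNL1∆ against AAV-GFP the median was 0.46, beside −0.06 over all genes, and 5 members were above in every library (Actn3, Myoz1, Myoz3, Des and Mylk2; 19.2% of all genes) and none below. DESeq2 called 6 members higher here, adding Actn3, Myoz3, Tcap and Des, where it called 2666 genes higher and 3001 lower in all.

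The scaling of the libraries bears on these differences, since it moved the median of all genes. When libraries were scaled by total counts alone, the median over all genes tested for AAV-GFP-MBNL1∆ against AAV-GFP became −0.33, and when they were scaled on 45 fibre reference genes it became −0.52. On the fibre scale, Mylk2 still rose, by 0.84 (edgeR adjusted p = 0.0103), and Myoz1 by 0.32 (0.0300). The differences of Myot, Neb and Des turned negative on that scale, at −0.19, −0.27 and −0.17, and those of Myot and Neb on the total scale, at −0.04 and −0.11, none of them called. Actn2 moved from −0.03 to −0.42 on the fibre scale (0.207). The members' median was 0.22 on the total scale and 0.045 on the fibre scale. For AAV-GFP against saline the median over all genes became 0.20 on the total scale and 0.32 on the fibre scale, and the members' median became −0.19 and −0.11. On the fibre scale Tcap was then at −0.0014, Myoz1 at −0.040 and Des at 0.46, none of them called. On the main scale, edgeR called 14 of the 45 fibre reference genes higher between the vectors and none lower, beside 10.8% and 10.3% of all genes. Of the 45, 38 had a positive difference and 7 a negative one.

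Between the vectors, other genes of the Z-disc were called at shares near those of all genes. Of 33 tested, 5 were called higher and 3 lower in AAV-GFP-MBNL1∆ against AAV-GFP, beside 10.8% and 10.3% of all genes. Pdlim5, an adaptor that binds alpha-actinin, rose from 381 ± 74.7 to 758 ± 24.5 CPM (edgeR adjusted p = 0.00669), and myopalladin (Mypn), a partner of nebulin and alpha-actinin, from 413 ± 85.3 to 674 ± 96.6 CPM (0.0263). Pdlim3, a related alpha-actinin partner, fell from 634 ± 21.9 to 436 ± 36.5 CPM (0.0153). Against saline, beside 4.76% and 4.60% of all genes, 1 was called higher, Pdlim5 (470 ± 49.7 to 758 ± 24.5 CPM, 0.0313), and 3 lower: Pdlim3 (604 ± 40.2 to 436 ± 36.5 CPM, 0.0337), and the low-level genes Nebl (2.50 ± 0.0626 to 1.45 ± 0.320 CPM, 0.0286) and Pgm5 (17.8 ± 1.44 to 13.6 ± 0.598 CPM, 0.0404). Pdlim5 and Pdlim3 were thus called in opposite directions in both comparisons with AAV-GFP-MBNL1∆. AAV-GFP against saline had no call in this list by edgeR, 2 of 33 at an unadjusted p under 0.05 and a median of −0.17.

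Among 19 other thin filament genes, 2 were called, both higher in AAV-GFP-MBNL1∆ than in AAV-GFP, a share like that of all genes (10.8%). Skeletal actin (Acta1) rose from 21712 ± 4242 to 36841 ± 2980 CPM (edgeR adjusted p = 0.0319) and the fast troponin I gene Tnni2 from 4021 ± 762 to 6269 ± 888 CPM (0.0439). Against saline none of the 19 was called for AAV-GFP-MBNL1∆ by edgeR (4 at an unadjusted p under 0.05), and none for AAV-GFP (0 at an unadjusted p under 0.05). Neb, the ruler of the same filament, lay at 0.14 ± 0.23 between the vectors, with a 95% interval of −0.38 to 0.65. Of 12 M-band and thick filament genes, 2 were called higher and 2 lower between the vectors (10.8% and 10.3% of all genes), and 2 lower against saline (4.60%). Mybph, a myosin-binding protein, averaged 370 ± 77.3 CPM after saline, 338 ± 21.7 CPM after AAV-GFP and 48.2 ± 18.8 CPM after AAV-GFP-MBNL1∆. It fell in the last group against both others (−2.94, adjusted p = 0.000865, and −2.81, adjusted p = 0.00103).

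The members did not follow a single pattern across libraries. Over all 36 pairs of members, Pearson's r of log2 CPM across 9 libraries had a median of 0.61 and ran from −0.51 (Neb with Des) to 0.98 (Myoz1 with Mylk2). Without AAV-GFP 2 the median was 0.20 over 8 libraries, 14 of 36 pairs were negative in place of 3, and Myoz1 with Mylk2 remained the closest pair at 0.97. Actn2 and Myoz1 were then the most opposed, at −0.68. These values are descriptions, since the libraries share groups and 1 library carries much of the spread. Outside the members, the 2 genes most like each by Pearson's r over the 9 libraries were Wfs1 (0.974) and Hspb6 (0.970) for Actn2, Gm6206 (0.989) and Rbfox1 (0.988) for Actn3, and Sar1b (0.996) and Lcmt1 (0.991) for Myoz1. They were Ankrd28 (0.993) and Smyd1 (0.991) for Myoz3, Ppp1r2 (0.988) and Flt1 (0.986) for Myot, and Pacsin3 (0.983) and Chrac1 (0.979) for Tcap. Neb was followed by Ttn and Aaed1 (0.991), Des by Sema7a and Snap29 (both 0.994), and Mylk2 by Dap3 (0.997) and Msrb3 (0.993).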

How the data were processed

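The deposited values are read counts per gene for 9 libraries. Per the labels' protocols, Trizol RNA was treated with DNase and 250 ng was made into libraries with a KAPA mRNA kit. Per the submitters' processing notes, cutadapt 2.10, STAR 2.7.5a, HTSeq 0.12.4, DESeq2 1.30.0 and mm10 were used. The sources used here give neither the annotation release nor the strand setting. Rows naming no gene (16.8% to 18.3% of reads) were left out. Of 55401 identifiers, 55141 matched GENCODE M21 (GRCm38), which gave coordinates and exon lengths, and 54349 matched in the same version. Neb and Xirp1 matched in another version, so their exon lengths and coordinates may differ from those used in the counting.

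One model over all 9 libraries was fitted in edgeR 4.0.16 under R 4.3.3 (filterByExpr, TMM, robust quasi-likelihood F test, 3 group means, 6 residual degrees of freedom), with Benjamini-Hochberg adjustment over 18514 genes in each comparison and a threshold of 0.05. Adjusted p-values come from edgeR where no other tool is named. The labels do not say that libraries came from separate mice, so the p-values describe library-to-library spread, which may be technical. No pair of libraries of the same group agreed within sampling noise. The members and gene lists were chosen with earlier results of these data known. The text names all members and, from each list, up to 4 genes with the smallest p-values per comparison. For each member it names the 2 most similar genes with a mean of at least 10 CPM, by Pearson's r of log2 CPM over the libraries. Genes outside that rule (Mylk4 between the vectors, and the markers Ckm, Myh6, Tnnt2, Nppa, Mzb1, Xist, Ddx3y, Eif2s3y and Uty) were chosen after their values were seen. Alternatives were DESeq2 1.42.0, limma-voom (limma 3.58.1) with and without quality weights, other scalings and filters, a fit without robust estimation, the compared groups alone, a replicate block, a fit that left out mitochondrial genes with the 10 most abundant ones, and each library left out. Some results are not reported here.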

Additional observations from a re-analysis of the deposited data

How the results depend on the processing

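For AAV-GFP against saline, the count of members called lower was 6 with limma-voom quality weights and 0 otherwise. For AAV-GFP-MBNL1∆ against saline, 1 member was called higher and 1 lower on the fibre scale, 2 higher with DESeq2, and 3 higher and 1 lower both with quality weights and with only these groups fitted. The calls over all genes were 223 higher and 632 lower on the fibre scale and 1600 and 1289 with DESeq2. They were 2854 and 2604 with quality weights and 2303 and 2281 with only these groups. Leaving out a library gave 0 to 2 members higher and 0 to 1 lower, beside 286 to 1933 and 214 to 2114 of all genes. The members' median was 0.10 scaled by total counts, 0.035 on the fibre scale and 0.025 to 0.16 with a library left out. Myoz3 was −0.071 on the fibre scale and −0.026 to 0.15 with a library left out. For AAV-GFP-MBNL1∆ against AAV-GFP, 6 members were called higher with DESeq2 and with quality weights, 1 with only these groups fitted (Mylk2) and 0 to 5 with a library left out: 0 without AAV-GFP-MBNL1∆ 3, 1 without AAV-GFP 1 or AAV-GFP-MBNL1∆ 1 or 2, 4 without AAV-GFP 2 and 5 without AAV-GFP 3. Over all genes, the calls here were 2666 higher and 3001 lower with DESeq2, 4442 and 4852 with quality weights and 788 and 371 with only these groups. With a library left out they ran from 556 to 2380 higher and from 270 to 4269 lower, with 2037 and 1759 without AAV-GFP 2. On the fibre scale they were 326 and 5827, where Mylk2 and Myoz1 were still called higher. Member counts thus did not always follow the number of calls. The members' median was 0.045 on the fibre scale and 0.36 to 0.65 with a library left out. Myot and Neb were −0.038 and −0.11 scaled by total counts, and Myot, Neb and Des were −0.19, −0.27 and −0.17 on the fibre scale. With a library left out, Myot lay at −0.033 to 0.35, Neb at −0.078 to 0.28 and Actn2 at −0.25 to 0.16. Des in AAV-GFP against saline lay at −0.0030 to 0.18 with a library left out, 0.33 scaled by total counts and 0.46 on the fibre scale, and the log2 ratio of Actn3 to Actn2 lay at −0.55 to 0.17. Actn2 between the vectors was −0.42 on the fibre scale. The members' median in AAV-GFP against saline was −0.19 scaled by total counts, −0.11 on the fibre scale and −0.54 to −0.23 with a library left out. The causes of these shifts were not tested.

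Libraries with the same replicate number did not all deviate together (r from −0.18 to 0.53), so the numbers were not taken as a pairing. With the replicate block, 2 members were called higher in AAV-GFP-MBNL1∆ against AAV-GFP, as without it, Actn2 was 0.014 in place of −0.03, and AAV-GFP against saline had 99 genes called higher and 0 lower over all genes, none of them a member. Over all genes, scaling by total counts gave 798 higher and 4604 lower calls between the vectors and the fibre scale 326 and 5827, in place of 2006 and 1908. Counts over all genes for AAV-GFP against saline were 1629 higher and 91 lower with DESeq2, and 2907 and 355 without AAV-GFP 3, in place of 0 and 0. The planned ratio of Xirp1 to Neb could not be computed, since Xirp1 was listed at 0.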
